A study of Homo sapiens with 6 samples.

Results

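The cluster of miR-424, miR-503, miR-542 and miR-450 is a group of 6 microRNA hairpins on the long arm of the human X chromosome. Its mature miRNAs were taken by name, as every row called miR-424, miR-503, miR-542, miR-450a or miR-450b on any arm, which gave 8 of the 787 rows of the deposited table. They are hsa-miR-424-5p, hsa-miR-424-3p, hsa-miR-503-5p, hsa-miR-503-3p, hsa-miR-542-5p, hsa-miR-542-3p, hsa-miR-450a-5p and hsa-miR-450b-5p, written below without the species prefix. The cluster was chosen by its names, but with the SMARCA4 against empty vector difference of miR-424-3p already known. The differences of its members are therefore described here with their errors, and no p-value is given for them.

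The data are small RNA libraries of A549, an established human cell line derived from a lung adenocarcinoma, with epithelial character. A first group of 3 libraries came from cells given the empty plasmid pcDNA4, and a second group of 3 from cells given pcDNA4-SMARCA4, both taken 48 h after lipid transfection. SMARCA4, also known as BRG1, is an ATPase of the SWI/SNF complex, which remodels chromatin. The labels call the transfection a restoration of its expression. Both groups share the line and the plasmid backbone, the transfection is transient, and SMARCA4 itself was not measured in these libraries.

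A hairpin precursor is cut into a 5p and a 3p strand, and an Argonaute protein keeps mainly 1 of them. The retained strand pairs with target messenger RNAs through its seed, bases 2 to 8. miR-424-5p and miR-503-5p belong to the extended miR-15/16 group, known for repressing cyclins and other drivers of the G1 to S transition, and the pair has been studied in differentiating muscle, in endothelium and in several carcinomas. The hairpins lie close together on 1 strand, and MIR503HG is a long non-coding RNA of the same locus.

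Sequences were available in RefSeq (GRCh38.p14) for 7 of the 8 members, and miR-542-3p is only named. They are shown because strands of the same hairpin, and of neighbouring hairpins, differ in seed. Capitals mark the seed, and all are written 5′ to 3′.
miR-424-5p: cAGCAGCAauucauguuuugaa
miR-424-3p: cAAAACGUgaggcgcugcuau
miR-503-5p: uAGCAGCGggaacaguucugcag
miR-503-3p: gGGGUAUUguuuccgcugccagg
miR-542-5p: uCGGGGAUcaucaugucacgaga
miR-450a-5p: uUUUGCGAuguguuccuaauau
miR-450b-5p: uUUUGCAAuauguuccugaaua

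The seed of miR-424-5p was shared in full with 5 other miRNAs of the table, miR-15a-5p, miR-15b-5p, miR-16-5p, miR-195-5p and miR-497-5p. miR-503-5p shares 6 bases with miR-424-5p from position 2 onward and has its own eighth base, so no other miRNA of the table with a RefSeq sequence had its full seed. The most abundant miRNA of the shared-seed group is printed beside a second one for comparison.
miR-16-5p: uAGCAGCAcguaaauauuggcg
miR-15a-5p: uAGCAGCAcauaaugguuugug
The seeds of miR-424-3p, miR-503-3p, miR-542-5p, miR-450a-5p and miR-450b-5p were found in 0 other rows with a sequence. The miR-424 strands thus have unrelated seeds although they come from 1 precursor, printed next with both strands in capitals.
MIR424: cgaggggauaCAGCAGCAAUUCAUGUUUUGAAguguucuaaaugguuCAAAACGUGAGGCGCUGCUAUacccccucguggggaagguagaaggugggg

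All 6 hairpins are transcribed from the minus strand of chromosome X and lie, in GRCh38, within 6527 bases (chrX:134540185-134546711). In the direction of transcription the order is MIR424, MIR503, MIR542, MIR450A2, MIR450A1 and MIR450B. MIR424 (chrX:134546614-134546711) and MIR503 (chrX:134546328-134546398) are 215 bases apart, and 4890 bases separate MIR503 from MIR542 (chrX:134541341-134541437). The last 3 hairpins lie 733, 76 and 78 bases after their upstream neighbours. In GENCODE 29, MIR503 lies in an intron of the lincRNA gene MIR503HG, and MIR424 overlaps an exon of that gene by 19 bases. The other 4 hairpins overlapped no further annotated gene. The sequence of miR-450a-5p occurs in both MIR450A1 and MIR450A2, so its reads cannot be assigned to either.

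The deposited values are normalized counts, in which each library's read counts were scaled by a single factor. The recovered read totals lay between 701885 and 1079944 in 5 libraries and reached 7274329 in SMARCA4 replicate 2, which is 8.33 times the mean of the others. After scaling its deposited values still had the largest sum, 3073322 normalized counts beside 1661870 to 1835229 in the other libraries. Levels in SMARCA4 replicate 2 thus depend on the scaling used. The members had between 10 reads over all libraries, for miR-503-3p, and 4536, for miR-424-3p. The 3-read limit that a count of 0 allows equals 1.27 normalized counts in SMARCA4 replicate 2 and 4.91 to 7.84 in the other libraries, and it covers counting error only. The epithelial label was read against 8 miRNAs of epithelial cells, of which 7 were listed, with a sum of 599 to 863 in empty vector libraries and 727 to 914 in SMARCA4 libraries. miR-205-5p was the one not analysed here. Within that sum, miR-141-3p (31.4 ± 10.8 against 182 ± 30.3) and miR-203a-3p (4.79 ± 0.972 against 39.7 ± 2.97, SD, n = 3 each) rose by limma (adjusted p = 0.0124 for both). The groups did not overlap for miR-200b-3p either, whose mean was 422 ± 123 in empty vector cells and 190 ± 51.8 with SMARCA4 (SD, n = 3 each, limma adjusted p = 0.109). miR-200a-3p separated the groups too, but was higher with SMARCA4. Replicates 1 to 3 of the empty vector held 13.2, 17.1 and 44.1 normalized counts of miR-200a-3p, and those of SMARCA4 57.5, 59.6 and 44.9. The named epithelial miRNAs were singled out after their values were seen. Of the 7 listed, 5 had a positive and 2 a negative log2 difference. Groups without overlap were also found for 31.1% of all tested miRNAs. Of 7 blood miRNAs 3 were listed, and their sum, nearly all of it miR-486-5p, was 5621 to 7213 against 7962 to 14458, while miR-1-3p and miR-133a-3p of muscle and miR-214-3p of fibroblasts were at 0 in every library. The endothelial pair miR-126-3p and miR-126-5p summed to 746 to 1490 against 1200 to 1401. Of 6 muscle, liver and neuron miRNAs 3 were listed, and the only one above 0, the neuronal miR-9-5p, was at 140 to 146 against 146 to 427. The fibroblast and smooth muscle list had 4 of 5 miRNAs listed, with a sum of 22.6 to 51.3 against 31.4 to 122. The part of these markers in the differences below was not tested.

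In empty vector cells the members stood between 129th and 537th of the 787 rows. By mean normalized count miR-424-3p was 129th of 787, followed by miR-424-5p (149th), miR-450b-5p (164th), miR-542-3p (220th) and miR-450a-5p (221st). miR-503-5p (395th), miR-542-5p (404th) and miR-503-3p (537th) were scarce. miR-424-3p and miR-424-5p were at 299 ± 34.2 and 237 ± 62.6 normalized counts (SD, n = 3 each), miR-542-3p and miR-450a-5p at 71.3 ± 11.3 and 70.4 ± 17.5 (SD, n = 3 each). The ranges of the empty vector libraries overlapped between neighbours in this order except at 3 steps, from miR-450b-5p (175 ± 51.5, SD, n = 3) to miR-542-3p, from miR-450a-5p to miR-503-5p, and from miR-542-5p to miR-503-3p. Strands differ in how well adapters are ligated to them, so the order describes reads, not molecules.

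Values of single libraries are given in the order of replicates 1, 2 and 3. Of all members, the 3p strand of miR-424 had the largest difference between the groups. miR-424-3p is the strand that was first annotated as the passenger of miR-424. It was at 281, 278 and 338 normalized counts with the empty vector, and at 944, 1393 and 885 with SMARCA4. Every SMARCA4 library was above every empty vector library. The means were 299 ± 34.2 and 1074 ± 278 (SD, n = 3 each), a 3.59-fold higher mean, and the log2 difference was 1.82 (SE 0.29, limma, on log2(value + 1)). By size this log2 difference was 48th of the 637 tested miRNAs. Without the deeply sequenced SMARCA4 replicate 2 the ratio of the means was 3.06.

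miR-424-5p, the strand that carries the miR-15/16 type seed, did not separate the groups. It was at 204, 198 and 309 with the empty vector, and at 199, 95.9 and 272 with SMARCA4. SMARCA4 replicate 2 was the lowest of all libraries, and the other SMARCA4 libraries lay inside the range of the controls. The log2 difference was −0.42 (SE 0.42), and it was 0.00325 without SMARCA4 replicate 2.

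miR-503-5p, the neighbour that shares part of that seed, was scarce and higher in each SMARCA4 library. It was at 9.43, 13.3 and 18.0 with the empty vector, from 5, 7 and 11 reads. It was at 28.8, 22.8 and 37.8 with SMARCA4, from 11, 54 and 16 reads. The groups did not overlap, the means differed 2.19-fold and the log2 difference was 1.09 (SE 0.46). With libraries rescaled to the same total the groups overlapped and the log2 difference was 0.79, where that rescaling moved the median of all tested miRNAs by −0.30. miR-503-3p, its partner strand, had 0 to 5 reads per library, and no fold is given for it.

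**Figure D1:**
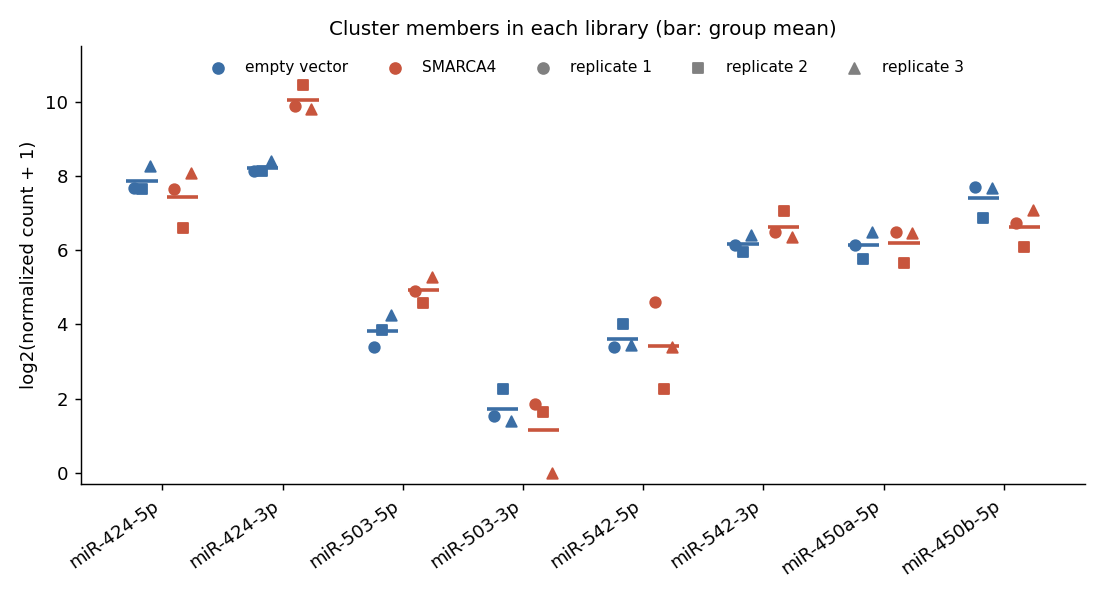
Each point is 1 library and each bar a group mean, on an axis of log2(normalized count + 1), for the 8 members with empty vector in blue and SMARCA4 in red. The SMARCA4 points of miR-424-3p and miR-503-5p lie above all of their empty vector points, and those of the other 6 members overlap.

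The strands of miR-542 are known mainly through miR-542-3p, a repressor of the apoptosis inhibitor survivin. miR-542-3p was at 69.8, 60.9 and 83.4 with the empty vector, and at 88.9, 131 and 80.3 with SMARCA4. SMARCA4 replicate 3 fell inside the control range, and the log2 difference was 0.46 (SE 0.35). Rescaling libraries to equal totals gave 0.14, with overlapping groups, and the difference was 0.25 without SMARCA4 replicate 2. With median-of-ratios scaling or quantile normalization (0.45 and 0.44) the groups of miR-542-3p did not overlap. miR-542-5p had 4 to 9 reads per library and a log2 difference of −0.19 (SE 0.65). It was at 9.43, 15.2 and 9.81 in empty vector cells and at 23.5, 3.80 and 9.44 with SMARCA4, so the SMARCA4 libraries held both its highest and its lowest value.

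The hairpins at the far end of the cluster gave a level pattern for miR-450a-5p and lower values for miR-450b-5p. miR-450a-5p was at 69.8, 53.3 and 88.3 with the empty vector, and at 88.9, 49.4 and 87.4 with SMARCA4, with a log2 difference of 0.07 (SE 0.39). miR-450b-5p was at 207, 116 and 203 in empty vector cells and at 105, 66.3 and 135 with SMARCA4. Only empty vector replicate 2 and SMARCA4 replicate 3 crossed between the groups, the means were 175 ± 51.5 and 102 ± 34.2 (SD, n = 3 each), and the log2 difference was −0.79 (SE 0.39). It was −0.51 without SMARCA4 replicate 2, and −1.11 with libraries rescaled to the same total. Compared base by base without gaps, the 22-base strands differ at 6 positions. The first of these is G7A, counted from the 5′ end with miR-450a-5p first. From position 18 on, fewer bases would differ if a gap were allowed. The sources used here do not give how reads that match both were counted.

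The 5p strands of miR-450a and miR-450b come from adjacent hairpins and resemble each other in sequence, but their balance differed between the groups. The ratio of miR-450a-5p to miR-450b-5p was 0.336, 0.459 and 0.435 with the empty vector, and 0.850, 0.745 and 0.649 with SMARCA4. Every SMARCA4 library was above every empty vector library, including the deeply sequenced SMARCA4 replicate 2. This pair was chosen after its values were seen. Over all pairs of miRNAs with a mean of at least 10, the groups did not overlap in the ratio for 36.4%, so a ratio that separates the groups is common in these libraries.

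All 8 members passed the filter on low values (a mean of at least 1), and 637 miRNAs were tested. By limma with a Benjamini-Hochberg threshold of 0.05, 1 of the 8 members was called, miR-424-3p, which was higher with SMARCA4. Of all tested miRNAs 1.41% were called, and 0.942% as higher. Since that call was known when the cluster was proposed, nothing is read from it. It lost the call by limma without replicate 1 or 3 of the empty vector (log2 difference 1.78 and 1.91), without replicate 1 or 3 of SMARCA4 (1.90 and 1.94) and when limma was run with no mean-variance trend. The groups did not overlap for 2 of the 8 members, both higher with SMARCA4. They did not overlap for 31.1% of all tested miRNAs, and for 15.9% with higher values, so this count is near the background. The members had 4 positive and 4 negative log2 differences with a median of −0.06, beside 308 positive and 329 negative over all tested miRNAs with a median of −0.05. Values of both signs stood at either end of the locus. Those of miR-424-5p (−0.42, SE 0.42) and miR-450a-5p (0.07, SE 0.39) were no larger than their SE, so no order along the locus is read from the signs.

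**Figure D2:**
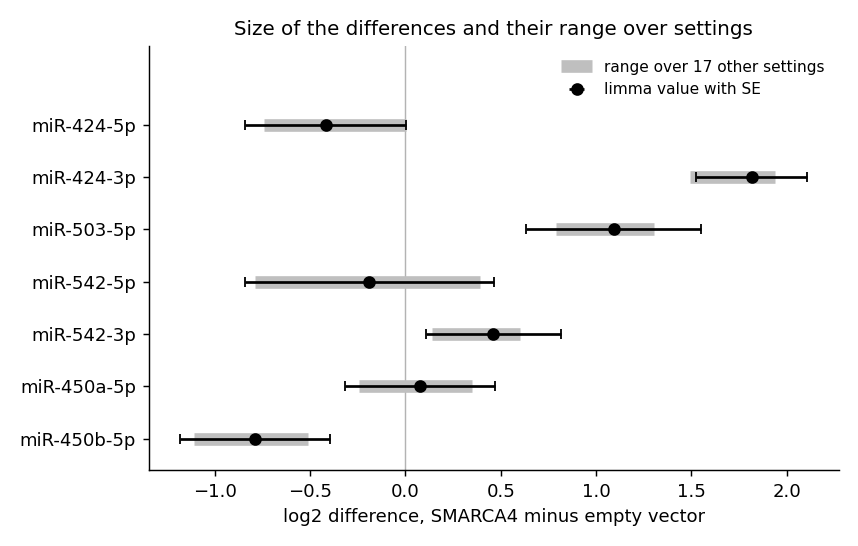
Points give the log2 difference (SMARCA4 minus empty vector) from limma with its SE, and grey bars the lowest and highest value over 17 other settings or left-out libraries, for 7 members (miR-503-3p is left out for its few reads). miR-424-3p stayed between 1.49 and 1.94 and miR-503-5p between 0.79 and 1.30, while the bars of miR-424-5p, miR-542-5p and miR-450a-5p reach past 0.

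The strands of the miR-424 hairpin printed above took different shares of its reads in the groups. The 5p strand made up 42.0% of the reads of both strands in empty vector replicate 1 (exact 95% interval 35.9 to 48.3, 257 reads), 41.6% in replicate 2 (35.4 to 48.0, 250 reads) and 47.7% in replicate 3 (42.7 to 52.8, 396 reads). With SMARCA4 it made up 17.4% in replicate 1 (14.0 to 21.3, 437 reads), 6.44% in replicate 2 (5.65 to 7.30, 3525 reads) and 23.5% in replicate 3 (19.8 to 27.5, 490 reads). The intervals of the groups did not overlap, while SMARCA4 replicate 2 stood below both other SMARCA4 libraries. They are Clopper-Pearson intervals of counting error alone, and reads amplified by PCR are not independent molecules. The mean share was 43.8% ± 3.42 against 15.8% ± 8.63 (SD, n = 3 each), a difference of −28.0 percentage points, and −23.4 without SMARCA4 replicate 2. A share within a library does not depend on the scaling between libraries.

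**Figure D3:**
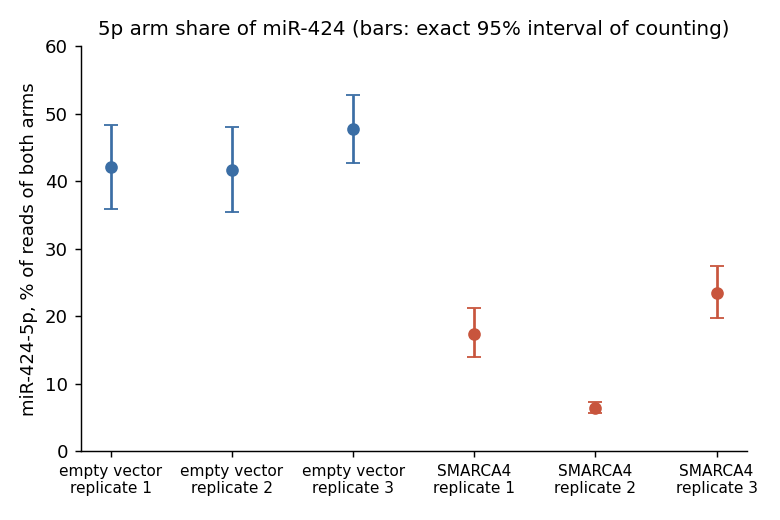
The share of miR-424 reads that came from the 5p strand, in percent, is plotted for each library with its exact 95% interval for counting error. The empty vector libraries lie between 41.6% and 47.7% and the SMARCA4 libraries between 6.44% and 23.5%.

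The miR-542 hairpin did not show such a separation. Its 5p strand made up 11.9%, 20.0% and 10.5% of the reads of both strands with the empty vector, and 20.9%, 2.82% and 10.5% with SMARCA4. SMARCA4 replicate 2 alone lay below the controls, and the other libraries held 38 to 57 reads of both strands, which gives intervals such as 10.0 to 36.0 for SMARCA4 replicate 1. For miR-503 the 5p strand held 77.8% to 100% of only 6 to 59 reads, and a difference was not detectable at this depth.

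Unequal differences of the strands were common in these libraries. Over the 97 hairpins whose strands both had a mean of at least 10 normalized counts, the groups did not overlap in the 5p to 3p ratio for 42.3%, and for 17.5% with a lower ratio under SMARCA4, as for miR-424. The log2 ratio of miR-424 differed by −2.24 (SE 0.60), the 12th by size of the 97, where the median size was 0.91 and the quartiles 0.56 and 1.61. It was −1.61 without SMARCA4 replicate 2. The ratio of miR-542 differed by −0.65 (SE 0.75) and stood 66th, and it was 0.14 without SMARCA4 replicate 2. The strands had differences of the same sign in 41 of the 97 hairpins, with miR-424 and miR-542 among the others.

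**Figure D4:**
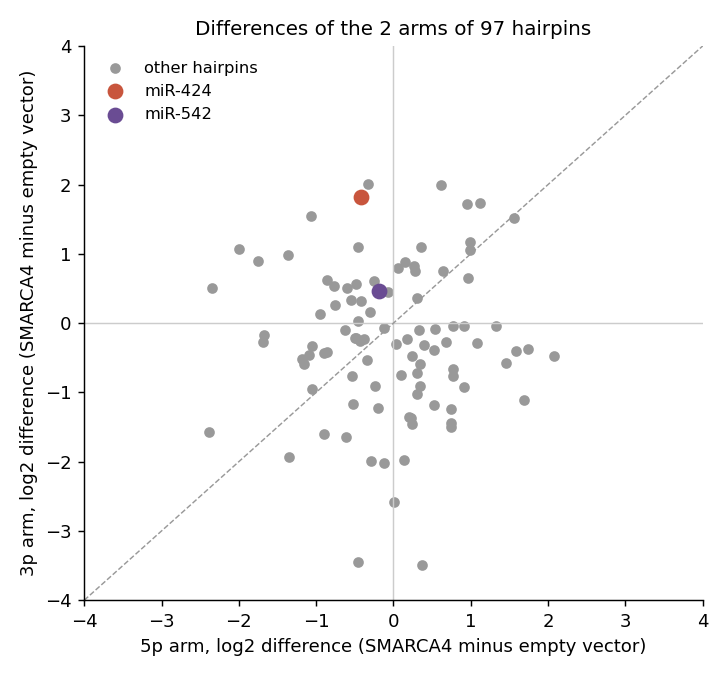
Each point is a hairpin, placed by the log2 difference (SMARCA4 minus empty vector) of its 5p strand and of its 3p strand, with the dashed line where both are equal. miR-424 (red) lies at −0.42 and 1.82 and miR-542 (purple) at −0.19 and 0.46, in the quadrant of a lower 5p and a higher 3p strand, among many other hairpins off the line.

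The summed level of the cluster differed between the groups through miR-424-3p. The 8 members summed to 852, 738 and 1051 normalized counts with the empty vector, and to 1480, 1765 and 1506 with SMARCA4, a 1.80-fold higher mean. Without miR-424-3p the sums were 571, 460 and 713 against 536, 371 and 621, and the groups overlapped. miR-424-3p accounted for 32.2% to 37.6% of the cluster in empty vector libraries and for 58.8% to 79.0% with SMARCA4. miR-450b-5p went from 15.7% to 24.3% of it to 3.76% to 8.93%, and miR-424-5p from 23.9% to 29.4% to 5.43% to 18.0%. Shares of 1 sum are bound to each other, so a larger share of miR-424-3p leaves less for the rest. As a part of all miRNA reads the cluster held 0.0513%, 0.0416% and 0.0595% in empty vector libraries and 0.0806%, 0.0574% and 0.0831% with SMARCA4, where SMARCA4 replicate 2 fell inside the control range.

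**Figure D5:**
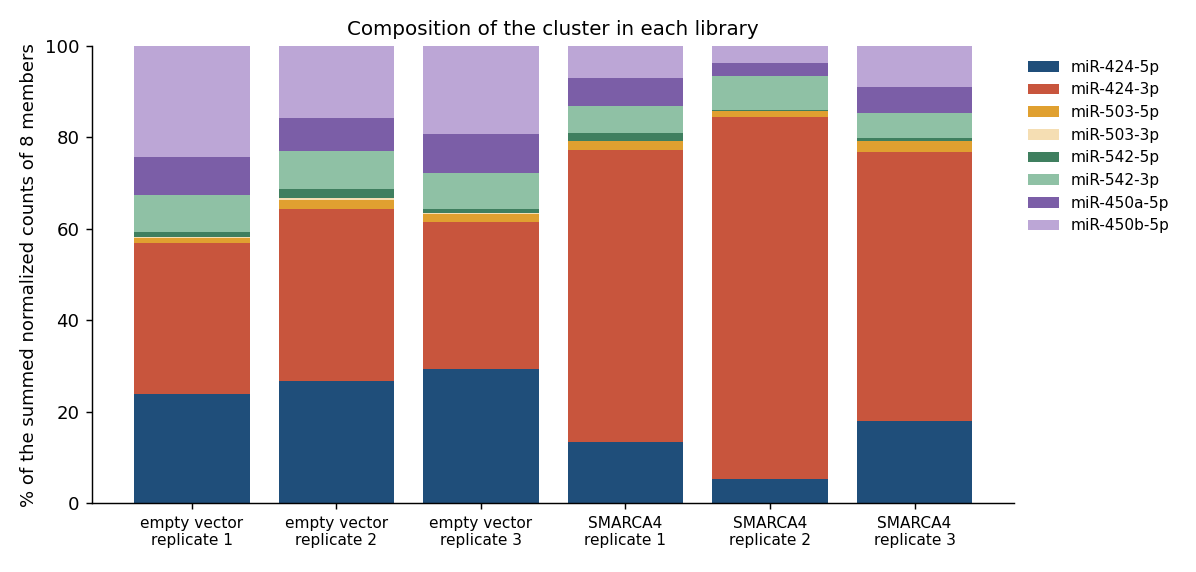
Stacked bars give the percent of the summed normalized counts of the cluster that each of the 8 members held in each library. The red section, miR-424-3p, holds 32.2% to 37.6% in the empty vector libraries and 58.8% to 79.0% in the SMARCA4 libraries.

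The miRNAs outside the cluster that have the seed of miR-424-5p were far more abundant than it. The 5 listed ones summed to 14787 ± 3811 against 16009 ± 1807 normalized counts (SD, n = 3 each), and miR-16-5p, the main member and a well-known repressor of cyclin D1 and BCL2, made up most of that at 13829 ± 3669 against 15063 ± 1645 (SD, n = 3 each). miR-424-5p held 1.20%, 1.87% and 1.76% of the reads with this seed with the empty vector, and 1.15%, 0.684% and 1.57% with SMARCA4, with overlapping groups. By limma 0 of these 5 miRNAs passed over all miRNAs, 0 had an unadjusted p under 0.05, and edgeR and DESeq2 on recovered reads called 0 as well. As only 1.41% of all tested miRNAs were called, nothing is read from this 0. The unadjusted limma count was 1 with no filter on low values, with a mean of at least 10, with the replicate block and without SMARCA4 replicate 2. The groups did not overlap for miR-15a-5p, at 291 ± 44.5 against 448 ± 62.0, with a log2 difference of 0.62 (SE 0.28, SD with n = 3 each, limma adjusted p = 0.225). They did not overlap either for miR-195-5p, at 28.7 ± 1.87 against 17.2 ± 6.09, with a log2 difference of −0.77 (SE 0.44, SD with n = 3 each, limma adjusted p = 0.327). Groups without overlap were found for 31.1% of all tested miRNAs, so 2 of 5 is near the background. The log2 differences of miR-15b-5p, miR-16-5p and miR-497-5p were −0.44, 0.16 and −0.25. That of miR-15b-5p was −0.17 without SMARCA4 replicate 2 and −0.76 with libraries rescaled to the same total, which also gave 0.30 for miR-15a-5p. The sign of miR-16-5p changed with libraries rescaled to the same total or quantile normalized. Of 33 tested miRNAs from other clusters and hairpins of chromosome X, 0 rose and 2 fell by limma. These were both strands of miR-222, the miRNA named in the study's title. Of all 637 tested miRNAs 6 rose and 3 fell. The 33 had 12 positive and 21 negative log2 differences, beside 308 and 329 over all tested miRNAs.

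Within the cluster the members followed different profiles over the 6 libraries. These correlations are descriptions of log2(value + 1) over libraries that share their depth and group, and carry no test. Pearson's r was −0.52 between the strands of miR-424, 0.81 between miR-424-3p and miR-503-5p, and 0.83 between miR-424-3p and miR-542-3p. miR-424-5p ran instead with miR-450b-5p (0.81) and miR-450a-5p (0.79), and miR-424-3p ran against miR-450b-5p (−0.77). In normalized counts SMARCA4 replicate 2 was the highest library for miR-424-3p and miR-542-3p. It was the lowest for miR-424-5p, miR-450a-5p, miR-450b-5p and miR-542-5p. As said above, levels in SMARCA4 replicate 2 depend on the scaling used. Why it was the highest library for some members and the lowest for others was not tested.

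Among 414 miRNAs outside the cluster with a mean of at least 10, the profile most like that of miR-424-3p was that of miR-130a-3p (r = 0.996 over 6 libraries), at 1143 ± 31.2 against 2317 ± 250 (SD, n = 3 each). miR-3614-5p (0.996), miR-4746-5p (0.989), miR-28-3p (0.981) and miR-152-3p (0.980) followed, each with groups that did not overlap and a highest value in SMARCA4 replicate 2. The nearest profiles to miR-424-5p were those of miR-19a-3p (0.957), miR-539-3p (0.954) and miR-15b-3p (0.949), each with overlapping groups. miR-15b-3p is the partner strand of a miRNA with the seed of miR-424-5p. miR-503-5p was nearest to miR-5100 (0.988), miR-324-5p (0.963) and miR-19b-3p (0.960). All 3 were higher in each SMARCA4 library than in any empty vector library. These miRNAs were picked for their likeness to members whose values were known. Whether their groups overlap, and which library is highest, therefore follows largely from that choice.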

How the data were processed

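Per the labels' protocols, the 6 libraries were prepared with a TruSeq kit for small RNA from total RNA. bcl2fastq 2.18.0.12 and the build GRCh38 are named in the submitters' processing notes. Not given in the sources used here are the aligner, the counting program and the miRNA annotation. The deposited values are a normalized signal per mature miRNA, and the name of the table speaks of TMM scaling. In each library 100% of values were whole multiples of 1 step (tolerance 1e-06 reads), so read counts were recovered. The value of 1 read was 0.422 to 2.61.

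limma 3.58.1 (R 4.3.3) was fitted on log2(value + 1) with group as its only term and a mean-variance trend, over 637 miRNAs with a mean of at least 1. It was first run on simulated counts with the same dispersion for all miRNAs and no outlying library. That run therefore does not measure its error in these libraries. Differences of log2(value + 1) understate changes of scarce miRNAs. edgeR 4.0.16 and DESeq2 1.42.0 on recovered reads, other pseudocounts, filters and scalings, a replicate block and each library left out were alternatives. The 5p to 3p ratios, the ratio of miR-450a-5p to miR-450b-5p, and their alternatives were added after seeing the data. No replicate pair agreed within sampling noise (chi-square per degree of freedom of at least 6.61). That lowest value was between SMARCA4 replicates 1 and 3, and SMARCA4 replicate 2 stood at 356 and 362 from them. The empty vector pairs gave 24.6 for replicates 1 and 3, and 126 and 174 for those with replicate 2. The labels do not say that the replicate numbers pair libraries, so they were not taken to pair them. Same-numbered libraries deviated together with correlations of 0.07, 0.09 and 0.01. Differently numbered libraries of the 2 groups gave −0.095 to 0.049.

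Members and lists were chosen with earlier results of these data known. Named miRNAs were all members, the same-seed miRNAs, called miRNAs of chromosome X, and the 5, 3 and 3 profiles most like miR-424-3p, miR-424-5p and miR-503-5p.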

Additional observations from a re-analysis of the deposited data

How the results depend on the processing

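Over the whole table limma called 9 miRNAs, DESeq2 44 (212 adjusted p-values undefined), and limma between 0 and 50 with 1 library left out (50 without SMARCA4 replicate 2, and 0 without empty vector replicate 1 or SMARCA4 replicate 3, where 102 and 125 had an unadjusted p under 0.05). The other settings called 6 to 13. Among the members 1 was called in most settings, 0 by limma without the mean-variance trend (2 at an unadjusted p under 0.05), and 0 to 1 with 1 library left out. Among the same-seed miRNAs outside the cluster the count was 0 throughout. With the replicate block 13 miRNAs were called and 1 member. The groups did not overlap for 2 members in the deposited values and for 1 with the same total per library. With median-of-ratios scaling or quantile normalization they did not overlap for 3. The share over all tested miRNAs was taken for the deposited values only (31.1%), so nothing is read from these counts. With 1 library left out, these log2 differences changed sign: miR-424-5p (−0.74 to 0.00325, positive without SMARCA4 replicate 2), miR-503-3p (−0.91 to 0.016, positive without SMARCA4 replicate 3), miR-542-5p (−0.79 to 0.39, positive without SMARCA4 or empty vector replicate 2), miR-450a-5p (−0.11 to 0.35, negative without empty vector replicate 2 or SMARCA4 replicates 1 or 3), miR-16-5p (−0.088 to 0.29, negative without empty vector replicate 2), miR-497-5p (−0.59 to 0.20, positive without SMARCA4 replicate 2) and the 5p to 3p ratio of miR-542 (−1.32 to 0.14, positive without SMARCA4 replicate 2). Rescaling to the same total gave −0.24 for miR-450a-5p and −0.17 for miR-16-5p, and quantile normalization −0.14 for miR-16-5p. The cause was not tested. The cluster's share of all reads differed by 0.0182 to 0.0311 percentage points and the miR-424 5p share by −31.9 to −23.4 with 1 library left out. Depth limits miR-503-3p, miR-503-5p and miR-542-5p.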
